A study of Rattus norvegicus with 24 samples.

Results

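ENSRNOG00000008664 is 1 of the 32662 Ensembl gene IDs listed in the count tables of amygdala and dorsal raphe from 2 selectively bred rat lines. It was chosen by its ID, as a gene whose difference between the lines was larger in the dorsal raphe than in the amygdala. The level of the gene in the 2 lines and regions therefore made the choice, and its line differences are given below as a description, with no test. The tables do not pair IDs with gene symbols, and 0 of the 32662 IDs matched the RefSeq gene table of assembly GRCr8 used here, so the gene is given by its ID, and its function, genome position and sequence are not given.

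The 24 libraries were made from poly-A RNA of 60-day-old rats, 6 for each of 4 groups: high-responder amygdala, high-responder dorsal raphe, low-responder amygdala and low-responder dorsal raphe. The labels name no drug, allele or other manipulation, so line and brain region are the only factors they give. The labels do not tie libraries to animals, within a group or across the regions, so p-values measure the spread between libraries, which may be partly technical. Each response to novelty is represented by 1 bred line, so the response and any other inherited difference between the lines cannot be told apart. Library totals ranged from 9232983 to 20194601 counts. Defining markers of the 2 regions could not be looked up without symbols, but the libraries of the 2 regions did not overlap for 22.3% of the genes tested.

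High-responder rats move about more in an unfamiliar place than low-responder rats, and the lines are kept apart by breeding within each extreme. Selective breeding changes the frequency of alleles, so lines can come to differ in the transcript level of single genes, in every tissue that uses the gene or in only some of them. Serotonin neurons of the dorsal raphe, in the midbrain, send fibres to much of the forebrain. The amygdala is among their targets and takes part in fear learning and other emotional behaviour. In tissue RNA, a change in the number of cells that hold a transcript cannot be told apart from a change in the amount per cell.

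ENSRNOG00000008664 was present in all 24 libraries, with 909 counts in all. In high-responder dorsal raphe its normalised read counts were 4.94, 6.14, 6.26, 5.70, 5.54 and 3.70 CPM (counts scaled to a common library total) in libraries 1 to 6. In low-responder dorsal raphe they were 1.91, 1.71, 1.48, 1.54, 2.16 and 1.17 CPM in libraries 1 to 6. Every high-responder dorsal raphe library lay above every low-responder dorsal raphe library, with a gap of 1.54 CPM between high-responder library 6, the lowest of its group, and low-responder library 5, the highest of its group. Such an order, with the libraries of the 2 lines not overlapping and high-responder rats higher, was found for 0.306% of the 14390 genes tested in the dorsal raphe, and it is part of what the gene was chosen for.

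In high-responder amygdala the values were 2.98, 2.99, 3.71, 2.25, 1.45 and 2.40 CPM in libraries 1 to 6. In low-responder amygdala they were 2.05, 1.51, 1.69, 1.36, 1.76 and 1.87 CPM in libraries 1 to 6. Here the 2 lines overlapped: 5 of the 6 high-responder libraries lay above all 6 low-responder libraries, and library 5 lay inside the low-responder range. That library rested on 16 counts, which gives a 95% exact Poisson interval of 0.828 to 2.35 CPM that covers counting error only.

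**Figure D1:**
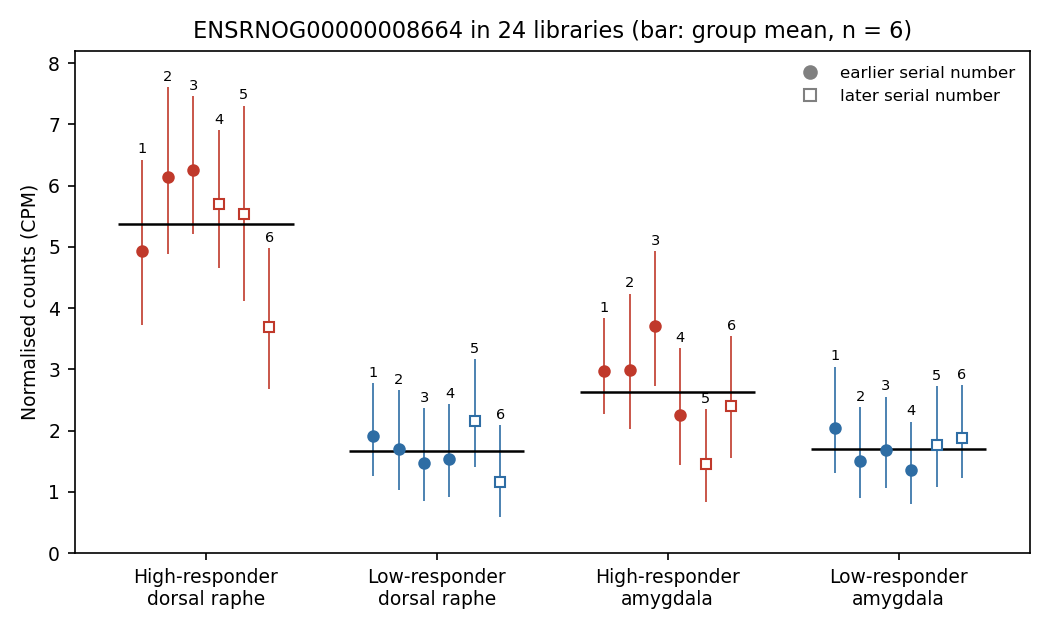
Normalised counts (CPM, vertical axis) of ENSRNOG00000008664 in each of the 24 libraries, by group and labelled by library number. Points are libraries, vertical lines their 95% exact Poisson intervals (counting error only), horizontal bars group means, and open squares libraries with later serial numbers; the 6 high-responder dorsal raphe libraries lie between 3.70 and 6.26 CPM and all 6 low-responder dorsal raphe libraries at or below 2.16 CPM.

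From highest to lowest, the group means (± SD, n = 6 each) were 5.38 ± 0.948 CPM for high-responder dorsal raphe, 2.63 ± 0.774 CPM for high-responder amygdala, 1.71 ± 0.248 CPM for low-responder amygdala and 1.66 ± 0.349 CPM for low-responder dorsal raphe. High-responder dorsal raphe was thus the group that stood highest, and its libraries took the first 5 places among the 24. The sixth place was held by high-responder amygdala library 3, at 3.71 CPM, and the seventh by high-responder dorsal raphe library 6, at 3.70 CPM. The 2 groups next in order, high-responder and low-responder amygdala, overlapped through library 5 alone. The 2 low-responder groups could not be ordered: amygdala was the higher in 19 of the 36 pairings of a library from each.

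The difference between the lines in the dorsal raphe was 1.68 on the log2 scale (SE 0.17), a 3.20-fold higher level in high-responder rats. By this value the gene stood at place 11 from the highest among the 14390 genes tested, of which 0.299% were more than 2-fold higher in high-responder rats. The fit called 0.0347% of the genes as higher in high-responder dorsal raphe, 5 in number, with this gene among them. The choice of the gene used this contrast, so nothing is read from that call. In the amygdala the line difference was 0.63 (SE 0.21), a 1.55-fold higher level in high-responder rats. There the gene stood at place 114 among 14265 genes and was not called, and 0.0210% of the genes tested were. The choice of the gene used this contrast too, so nothing is read from its not being called.

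The amygdala difference minus the dorsal raphe difference was -1.05 on the log2 scale (SE 0.27). A difference of this kind was called for 0.00668% of 14977 genes, which is 1 gene, and ENSRNOG00000008664 was not that gene. The line difference was larger in the dorsal raphe as measured, with a 95% interval of -1.61 to -0.49 for the change between regions. The gene was chosen for this change, and the interval takes no account of that choice. Nothing is read from the interval or from the gene not being called.

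The spread of the gene within groups was set against what counting alone gives. In the 2 low-responder groups the coefficient of variation between libraries was 14.5% in amygdala and 21.0% in dorsal raphe, against 21.7% and 22.7% from Poisson counting at these depths. The low-responder libraries of each region were therefore no more spread than counting alone gives. In high-responder amygdala the coefficient was 29.5% against 17.7% from counting, and in high-responder dorsal raphe it was 17.6% against 11.9%. The ratio of the chi-square statistic to its degrees of freedom was 2.64 and 2.14 in these groups and 0.451 and 0.798 in low-responder amygdala and dorsal raphe, where 1 is the value from counting alone. High-responder groups had more counts (460 in dorsal raphe and 203 in amygdala, against 118 and 128 in the low-responder groups), so variation between their libraries was easier to see, and whether the lines differ in this spread was not tested. Pooled over its libraries, high-responder dorsal raphe stood at 5.51 CPM, with a counting interval of 5.01 to 6.03, and low-responder dorsal raphe at 1.69 CPM, with 1.40 to 2.02. These intervals cover counting error only, and the high-responder dorsal raphe libraries spread more than counting gives.

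The difference between regions, taken as the mean over both lines, is another contrast than the line differences, but it rests in part on the high-responder dorsal raphe values for which the gene was chosen, so it too is given without a test. By this measure ENSRNOG00000008664 stood lower in amygdala than in dorsal raphe, with a log2 fold change of -0.50 (SE 0.14, 95% interval -0.78 to -0.22). The fit called 34.0% of the 14977 genes as lower in amygdala, this gene among them, and nothing is read from that call. The mean covers unlike values in the 2 lines. In high-responder rats alone the region difference was -1.02 (SE 0.20, 95% interval -1.45 to -0.59), and 5 of the 6 dorsal raphe libraries lay above all 6 amygdala libraries. In low-responder rats alone it was 0.033 (SE 0.18), with a 95% interval from -0.36 to 0.43, so modest differences in either direction lie within what these 12 libraries allow. The values within each line are a description, since their difference is the one the gene was chosen for.

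Set side by side by library number, the dorsal raphe value was the higher in all 6 high-responder numbers, from 1.54 times the amygdala value in number 6 to 3.82 times in number 5. Amygdala was the higher in 1 of the 36 pairings of a high-responder library from each region, so most other matchings would give a like result. In low-responder rats the ratio of dorsal raphe to amygdala ran from 0.624 in number 6 to 1.23 in number 5, and it was above 1 in numbers 2, 4 and 5. The high-responder libraries numbered 3 were the highest of their line in both regions, whereas amygdala library 5, the lowest, had a dorsal raphe partner in number only that lay near the middle of its group, at 5.54 CPM.

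**Figure D2:**
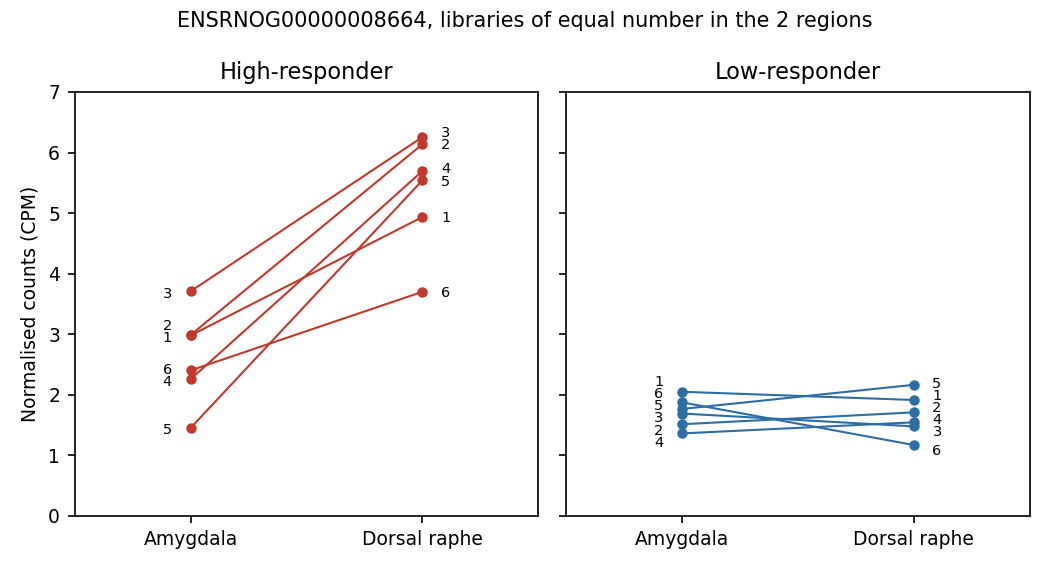
Normalised counts (CPM, vertical axis) of ENSRNOG00000008664 in amygdala and dorsal raphe for high-responder (left) and low-responder rats (right), with lines joining libraries of equal number, which the labels do not say came from the same rat. All 6 high-responder lines go up toward dorsal raphe, by 1.54 to 3.82 times, and the low-responder lines stay between 1.17 and 2.16 CPM.

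The serial numbers in the table headers, which are not the library numbers 1 to 6 of the labels, fall into an earlier and a later run in each group, and the dorsal raphe libraries of the 2 runs differed in 48.1% of the genes tested. ENSRNOG00000008664 was not among those genes, with a later minus earlier difference of -0.12 on the log2 scale (SE 0.17, 95% interval -0.50 to 0.25). In the amygdala, where the same comparison called 0% of genes by edgeR (545 had an unadjusted p under 0.05, and DESeq2 called 2), the difference was -0.25 (SE 0.23, 95% interval -0.74 to 0.23). Both differences use values that made the choice of the gene, which can favour a small spread within lines. They are given without a test, and nothing is read from the gene not being called. The line difference in the dorsal raphe was of like size within both runs. Both runs hold values that made the choice of the gene, so nothing is read from this likeness. Earlier high-responder libraries (n = 3) lay between 4.94 and 6.26 CPM and earlier low-responder ones (n = 4) between 1.48 and 1.91 CPM, a log2 difference of 1.80 (SE 0.18). Later high-responder libraries (n = 3) lay between 3.70 and 5.70 CPM and later low-responder ones (n = 2) between 1.17 and 2.16 CPM, a log2 difference of 1.56 (SE 0.39). The amygdala difference was not of like size. It was 0.86 (SE 0.23) in the earlier libraries, 4 per line, and 0.068 (SE 0.36) in the later ones, 2 per line, where high-responder libraries stood at 1.45 and 2.40 CPM and low-responder libraries at 1.76 and 1.87 CPM. The region difference was -0.48 (SE 0.14) in the earlier libraries and -0.63 (SE 0.27) in the later ones.

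The lines next to the gene in the count table were examined as context. The table is not sorted by ID, and the sources used here do not say what orders it. Of the 10 lines before and the 10 after it, 14 had enough counts to be tested, and the other 6 did not. In the dorsal raphe, where 0.0625% of all genes were called between the lines, 0 of these 14 were called by edgeR or by DESeq2, 0 had an unadjusted p under 0.05, and their log2 differences ran from -0.34 to 0.11 with a median of 0.041, against a median of -0.011 over all genes tested. In the amygdala 0 of the 14 were called by edgeR or by DESeq2 and 2 had an unadjusted p under 0.05, with log2 differences from -0.36 to 0.30 and a median of 0.051, against -0.0021 over all genes. In that region 0.729% of all genes parted the lines of rats without overlap. For none of the 20 table lines did the libraries of high-responder and low-responder rats part without overlap, in either region. The largest line difference among the tested table lines, in either direction and either region, was smaller than that of ENSRNOG00000008664 in the same region. The gene was chosen for its line difference. By size in either direction it stood at place 21 of 14390 genes in dorsal raphe and 241 of 14265 in amygdala. Most genes therefore fall below it, and nothing is read from this order.

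**Figure D3:**
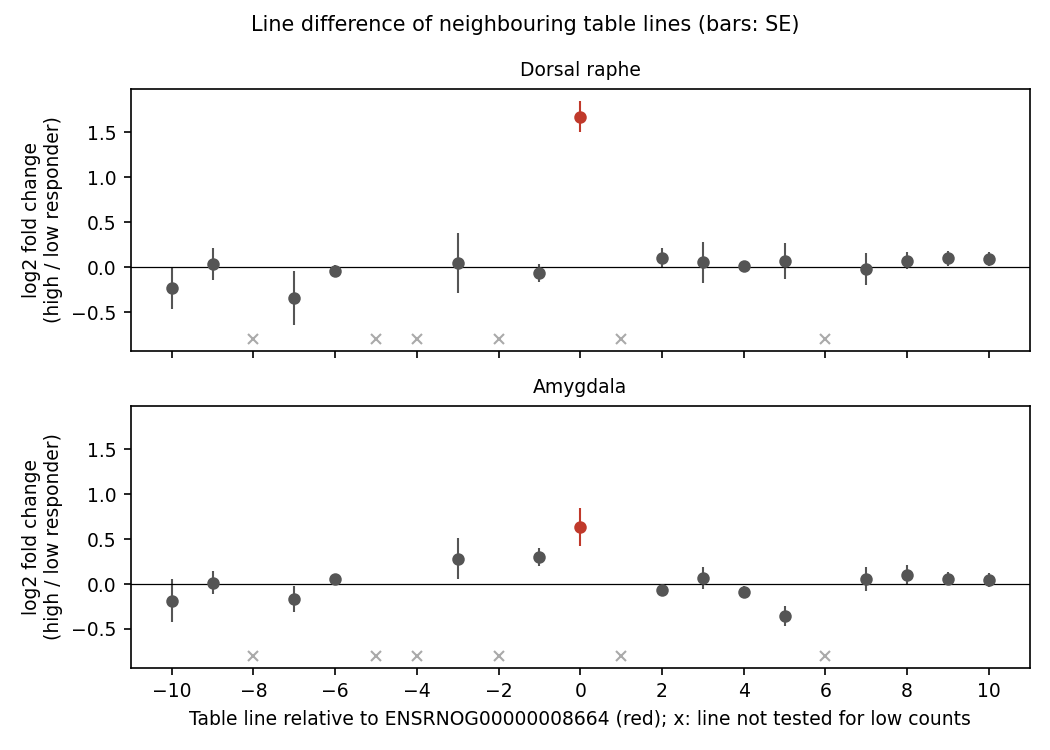
Log2 fold change between high-responder and low-responder rats (vertical axis) in dorsal raphe (top) and amygdala (bottom) for ENSRNOG00000008664 (red, position 0) and the 10 table lines on each side (grey), with SE as bars and crosses for lines with too few counts to test. In the dorsal raphe the gene stands at 1.68 and the tested lines around it between -0.34 and 0.11.

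Wider stretches of the table, chosen after the data were seen, gave few lines that parted the 2 lines of rats. Within 50 lines on each side 0 of 40 tested lines parted them without overlap in the dorsal raphe, within 100 lines 1 of 89, and within 250 lines 3 of 235, a share of 1.28% where 0.591% of all genes did so. All 3 were lower in high-responder rats, the opposite direction to ENSRNOG00000008664, and they are named because they are few. In the dorsal raphe, ENSRNOG00000036677, 79 lines before it, had 3.59 ± 0.429 CPM in high-responder rats against 6.19 ± 0.688 CPM (SD, n = 6 per line), with a log2 difference of -0.79 (SE 0.12, edgeR adjusted p = 0.0395). Its amygdala difference was -0.67, larger in size than the 0.63 of ENSRNOG00000008664 there. ENSRNOG00000036688 and ENSRNOG00000043102, at 106 and 124 lines before it, differed by -0.17 (SE 0.05) and -0.34 (SE 0.09) and were not called. In the amygdala 0 of 230 tested lines within 250 on each side parted the lines of rats, and ENSRNOG00000014661, 38 lines after the gene, was the 1 line more strongly higher in high-responder rats than the gene itself, at 0.70 (SE 0.26). In the other direction the amygdala differences within 250 lines reached -0.68.

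The line directly before it in the table, ENSRNOG00000027012, was much more abundant and had a strong region difference. Its lowest, median and highest values were 256, 328 and 374 CPM in high-responder dorsal raphe and 291, 340 and 366 CPM in low-responder dorsal raphe. In the amygdala they were 108, 137 and 149 CPM in high-responder and 90.8, 105 and 126 CPM in low-responder rats. It was therefore higher in the dorsal raphe, as ENSRNOG00000008664 was in high-responder rats, with a log2 difference of amygdala minus dorsal raphe of -1.46 (SE 0.07, edgeR adjusted p = 1.51e-14). Its line difference in the dorsal raphe was -0.062 (SE 0.10, edgeR adjusted p = 0.999), and the lines overlapped there. Low-responder dorsal raphe libraries thus combined a high count of ENSRNOG00000027012 with a low count of ENSRNOG00000008664. In the amygdala the line difference of ENSRNOG00000027012 was 0.30 (SE 0.10, edgeR unadjusted p = 0.0105, adjusted p = 0.445), higher in high-responder rats and not called. Over the 24 libraries the log2 values of the pair correlated with Pearson's r of 0.33, and after subtraction of the 4 group means with r of -0.23, given as a description of values that share each library's scaling. Whether reads are shared between these table lines was not tested.

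**Figure D4:**
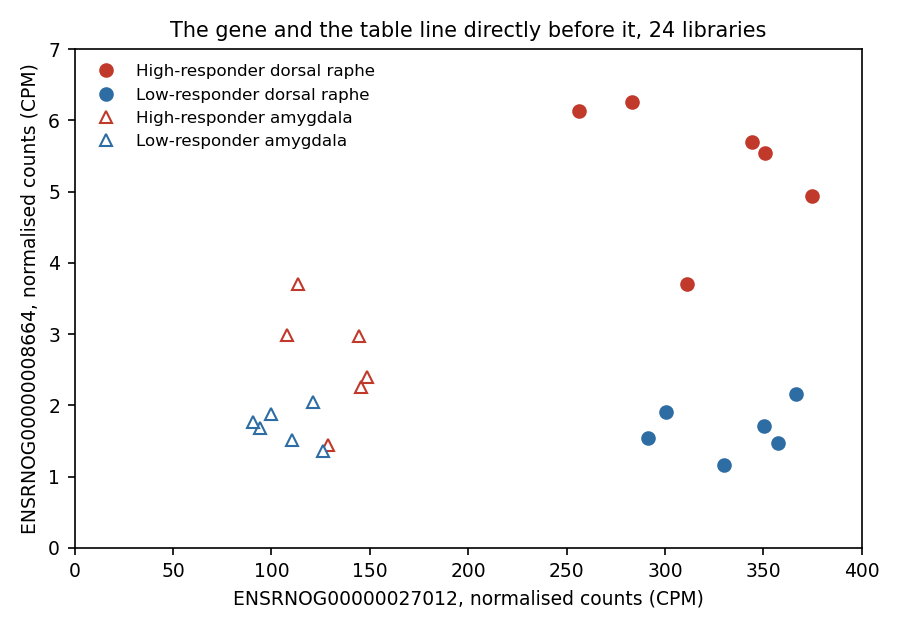
Normalised counts (CPM) of ENSRNOG00000008664 (vertical axis) against those of ENSRNOG00000027012, the table line directly before it (horizontal axis), in 24 libraries; red is high-responder, blue low-responder, circles dorsal raphe and triangles amygdala. The dorsal raphe libraries of both lines share the range of 256 to 374 CPM on the horizontal axis and part on the vertical axis, at 3.70 CPM and above against 2.16 CPM and below.

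The line directly after it, ENSRNOG00000054041, held at most 4 counts in any library and 25 in all. It was too low to be tested. Across the 14 tested neighbours, 9 were called between regions, 7 higher and 2 lower in amygdala, near the 65.8% of all genes called. Between later and earlier dorsal raphe libraries 10 of the 14 were called, beside 48.1% of all genes.

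Genes whose values ran most like those of ENSRNOG00000008664 were sought among the 14976 other genes that passed the low count filter. Over the log2 values of all 24 libraries the nearest was ENSRNOG00000006285, with Pearson's r of 0.76, and the next ENSRNOG00000054553, with r of 0.72, where 5% of genes exceeded 0.44. ENSRNOG00000006285 was likewise highest in high-responder dorsal raphe and next in high-responder amygdala, within a narrow range. Its dorsal raphe means were 65.0 ± 1.42 CPM for high-responder and 57.3 ± 2.69 CPM for low-responder rats, and its amygdala means 59.4 ± 1.91 and 55.2 ± 2.50 CPM (SD, n = 6 each). ENSRNOG00000054553 stood at 2.36 ± 0.613 against 0.390 ± 0.255 CPM in the dorsal raphe and at 0.541 ± 0.233 against 0.196 ± 0.140 CPM in the amygdala, in high-responder against low-responder rats.

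These correlations carry the differences between groups for which the gene was chosen. With the 4 group means subtracted, r with ENSRNOG00000008664 was -0.050 for ENSRNOG00000006285 and -0.41 for ENSRNOG00000054553, so their likeness lay between groups and not between libraries of 1 group. On that second measure the nearest genes were ENSRNOG00000046181, with r of 0.69, and ENSRNOG00000010610, with r of 0.68, where 5% of genes exceeded 0.32. These are the highest of 14976 values, and the lowest, at -0.65, was of like size. No link to the gene is read from them, and none was tested. ENSRNOG00000046181 did not share the line difference, at 1.13 ± 0.434 against 1.12 ± 0.449 CPM in high-responder and low-responder dorsal raphe. ENSRNOG00000010610 was higher in amygdala, at 3.58 ± 0.830 and 1.92 ± 0.555 CPM in high-responder and low-responder rats, than in dorsal raphe, at 0.918 ± 0.132 and 0.726 ± 0.308 CPM. No gene named by one measure was named by the other.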

How the data were processed

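The tools named are Trim Galore and STAR, with genome build rn6, per the submitters' processing notes. Their versions, the counting program, annotation release, strand setting and treatment of multiply mapped reads are not given in the sources used here, so overlapping or near-identical genes cannot be told apart and the value of 1 ID is uncertain where reads are shared. Poly-A libraries were made from RNA extracted with a Qiagen kit, per the labels' protocols. Each deposited table holds the unnormalised read counts per gene of 1 library, with 0 lines that name no gene. The gene, the lists and the alternatives were chosen with earlier results of these data known.

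Counts were fitted with edgeR 4.0.16 (R 4.3.3; filterByExpr, TMM, glmQLFit, glmQLFTest) over all genes, and a gene was called at a Benjamini-Hochberg adjusted p below 0.05. Line differences were fitted on the 12 libraries of a region, the others on 24 as 4 groups, and the run of serial numbers in the table headers within lines. SE is the log2 fold change over the root of F. CPM uses TMM factors of all 24 libraries, and correlations use log2 CPM with a prior count of 2. Named genes were the gene, the table lines next to it, any of the 20 nearest lines that parted the lines of rats, and the 2 most like it on each of 2 measures. The 4 IDs named from wider stretches of the table were chosen after their values were seen. The design planned tests of the region difference and of the runs of serial numbers for this gene. They are printed without p because they share values with the choice of the gene. The fits were tested on simulated counts that gave every gene the same spread beyond counting, and the line differences were simulated with no difference between runs. How the fits behave where spread differs between genes, or where runs differ, was not tested. The most similar pair of libraries within a group had a chi-square of 3.46 per degree of freedom over genes, above sampling noise. That value does not say whether libraries come from different rats. Each library was counted as 1 sample. Alternatives were RLE factors, no low count filter beyond 1 count, DESeq2 1.42.0, a replicate block, single lines or runs of serial numbers, and leaving out each library.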

Additional observations from a re-analysis of the deposited data

Results flagged for a closer look

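In low-responder amygdala library 5, ENSRNOG00000054041, the table line directly after ENSRNOG00000008664, stood at 0.0881 CPM, apart from the other 5 libraries of the group. The value is 1 count, and the others held 0. In a group that holds a single count, 1 library always stands apart, so nothing is read from it.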

How the results depend on the processing

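The line difference of ENSRNOG00000008664 in the dorsal raphe moved by less than the spread between libraries (0.33 on the log2 scale) under every alternative run, and stayed between 1.61 and 1.77 when any 1 library was left out. These fits use the values that made the choice of the gene, so nothing is read from this steadiness. In the amygdala the difference was 0.0685 in the later serial numbers alone and 0.51 to 0.75 with 1 library left out. The line by region difference was -1.49 in the later numbers alone and -1.18 to -0.93 with 1 library left out. The region difference was -0.56 to -0.44 with 1 library left out, -0.63 in the later numbers and 0.0329, in the opposite direction, in low-responder rats alone, where the construction leaves out the high-responder libraries. The difference between runs of serial numbers was -0.287 to -0.0074 in dorsal raphe and -0.38 to -0.038 in amygdala with 1 library left out.

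The labels give same-numbered libraries only a number in common. Over genes, their deviations from group means correlated above 0.1 in 1 of 6 pairs of regions in each line. Between the lines this held for 2 of 6 pairs in amygdala (r from -0.33 to 0.58) and 3 of 6 in dorsal raphe (r from -0.52 to 0.65). Pairs of unlike number were not compared, so these values cannot say whether libraries of equal number share a rat. With the replicate block the line difference of the gene was 1.68 in dorsal raphe and 0.60 in amygdala, the line by region difference -1.09 and the region difference -0.50. The block gave 0.22 (SE 0.44) for the dorsal raphe runs, against -0.12 (SE 0.17) without it, neither called. The blocked value rests on number 4, the only number whose dorsal raphe libraries fell in different runs, so nothing is read from the change of sign. The block could not be fitted to the amygdala runs, where number and run coincide. The block moved the count of genes called between the lines in dorsal raphe from 9 to 5. In amygdala it called 3 genes, 1 of them among the 3 called without it, and between regions 9424.

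Over all genes, the count called between the lines in dorsal raphe was 39 with DESeq2, 16 in earlier numbers, 0 in later ones (237 at an unadjusted p under 0.05, and 14 called by DESeq2) and 3 to 12 with 1 library left out. In the amygdala it was 3, against 1 with RLE factors and with no low count filter, 82 with DESeq2, 0 in earlier numbers (705 at an unadjusted p under 0.05, and 22 called by DESeq2) and 61 in later ones, and 1 to 27 with 1 library left out. Between regions it was 9851, and 9668 to 10107 with 1 library left out. The cause of these changes was not tested. Low-responder libraries held 11 to 27 counts of the gene, which limits the precision of each value.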
